A study of Mus musculus with 18 samples.

Results

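Malat1, Neat1, Kcnq1ot1, Airn, Gas5, Snhg1, Snhg12, Pvt1 and Mir17hg are 9 long noncoding RNA genes that were measured in mouse embryonic fibroblasts (MEFs) given uracil. They were found by gene symbol among the 55487 genes of the deposited count table, and each of the 9 had 1 entry there. The 9 were chosen by name, by no threshold on a measured value, but with dose and replicate results of these libraries already known. MEFs are connective-tissue cells grown from mouse embryos, and here they were kept for 24 h in full growth medium with no added uracil (the control), with 10 µM uracil or with 30 µM uracil. Each dose had 6 libraries of stranded total RNA with ribosomal RNA removed, sequenced as paired reads of 75 bases and numbered 1 to 6 in the labels. The sources call them biological replicates and name no mouse strain, passage or embryo, so p-values measure the spread between these libraries, which may be technical in part.

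Long noncoding RNAs are transcribed and processed much like messenger RNAs but are not translated into a known protein. Malat1 and Neat1 stay in the nucleus, where Malat1 sits in nuclear speckles and Neat1 is the scaffold of paraspeckles. Kcnq1ot1 and Airn are imprinted RNAs, made from the paternal chromosome, that run antisense to Kcnq1 and Igf2r and silence neighbouring genes on the same chromosome. Gas5, Snhg1 and Snhg12 carry small nucleolar RNAs (snoRNAs), which guide the modification of ribosomal RNA, in their introns, and the spliced host RNA is exported and is a known target of nonsense-mediated decay. Pvt1 lies next to the Myc gene, and Mir17hg is the precursor of a cluster of microRNAs that is active in dividing cells.

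Mir17hg (chr14:115278211-115284162, plus strand, GRCm39) was the gene with the lowest p-value against control among the 9, so the microRNAs it carries are shown. RefSeq placed the 6 hairpins of the cluster within 836 bases, at chr14:115043671-115044506 on the plus strand of GRCm38.p6. The main mature RNA of each hairpin is given from its first base, with the seed, bases 2 to 8, in capitals, and ordered by seed.
miR-17-5p: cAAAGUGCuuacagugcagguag
miR-20a-5p: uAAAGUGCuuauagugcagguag
miR-18a-5p: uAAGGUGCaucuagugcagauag
miR-19a-3p: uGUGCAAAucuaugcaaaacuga
miR-19b-3p: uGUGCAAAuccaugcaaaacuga
miR-92a-3p: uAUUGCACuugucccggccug
The 6 RNAs held 4 seeds. The seed AAAGUGC was shared by 2 of them, the seed GUGCAAA by 2, and the other two seeds occurred once each. The 6 microRNA genes had entries of their own in the count table and stood at 0 counts in every library, so these libraries give no level for the microRNAs themselves.

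The 3 snoRNA hosts were low together in the libraries that stood apart by their unaligned or uncounted reads, so the bases around their start sites are shown. Each line gives 60 bases on the transcribed strand, from 40 bases before the RefSeq start to 20 bases from it. Capitals mark the letters TATA between 40 and 20 bases before the start, and a run of at least 6 letters that are all C or T within 10 bases of the start. Both were chosen after the sequences were seen.
Gas5: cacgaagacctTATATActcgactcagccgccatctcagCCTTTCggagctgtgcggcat
Snhg1: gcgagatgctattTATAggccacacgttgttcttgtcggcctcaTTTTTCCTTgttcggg
Snhg12: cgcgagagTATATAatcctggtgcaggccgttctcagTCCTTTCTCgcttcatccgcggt
These windows lie at chr1:161035126-161035185, chr19:8723447-8723506 and chr4:132308638-132308697, all on the plus strand of GRCm38.p6. RefSeq lists 1 further start for Gas5, which had neither feature. The table held 8 windows for 7 of the 9 genes, and the 3 shown were the only ones of the 8 with either feature. Among all 32851 start windows of the table, TATA (which reads the same on both strands) stood at this place in 5.3%, a run of C and T on the transcribed strand in 29.2%, and both in 1.73%.

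Gene counts per library ranged from 3963932 to 20775298 read pairs. Of the 18 libraries, 3 stood apart. Control 1, with the fewest gene counts, had 54.2% of its pairs unaligned (95% Wilson interval 54.19% to 54.24%, counting error only), 30 µM 6 had 37.9%, 10 µM 6 had 5.24%, and the other 15 had 1.72% to 3.59%. Read pairs outside any gene came to 42.4 per 100 gene counts in control 1, 23.3 in 10 µM 6, 55.0 in 30 µM 6, and 10.8 to 15.1 in the other 15. The study's methods state that 1 vehicle and 1 30 µM sample were left out for human RNA, and the labels do not say which. Values are therefore for all 18 libraries and, where they differ, also for the 15 others. The 15 depart from the study, which kept 6 samples at 10 µM, since 10 µM 6 was left out here for its uncounted reads. Some values are therefore also given without control 1 and 30 µM 6 alone. Among the fibroblast markers, Col1a1 (at least 6053 CPM) and Vim (at least 4775 CPM) were high in every library, and some others were far lower. Lum was at 0.252 to 12.4 CPM, Pdgfra at 24.0 to 56.6 CPM and Thy1 at 38.7 to 56.5 CPM. Myod1 of muscle and Adipoq of fat were at 0 throughout, but Des of muscle was above 0 in every library (mean 1.02 CPM). Ptprc of blood cells reached at most 0.269 CPM, and Cd68 of blood cells averaged 0.938 CPM. Kdr of endothelial cells was at 4.86 to 8.32 CPM. Markers of other cell types were present in every library: the 7 epithelial and mesothelial markers summed to 79.5 to 253 CPM, mostly from Krt19 (53.2 to 90.5 CPM) and Msln (16.7 to 113 CPM), the 4 neural markers to 233 to 328 CPM, mostly from Map2 (199 to 299 CPM), and Fabp4 of fat was at 4.64 to 11.2 CPM. The summed fibroblast markers were 35035 CPM in control 1, 53229 CPM in 30 µM 6 and 21863 to 25070 CPM in the 15, and the part of these differences in the results was not tested.

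Levels are given as CPM, gene counts scaled to one common library size after TMM adjustment. Per kilobase of annotated exon, in the 5 controls without control 1, Malat1 was the most abundant at 239 CPM per kb. It was followed by Gas5 at 34.6, Snhg1 at 20.6, Snhg12 at 13.7, Neat1 at 3.64, Mir17hg at 1.55, Pvt1 at 0.838, Kcnq1ot1 at 0.299 and Airn at 0.269 CPM per kb. Each of these neighbours had ranges that did not overlap, except Kcnq1ot1 and Airn. The order rests on the length used. The annotation behind the counts is not given in the sources used here, so the exons counted may differ from those in the length. With the longest transcript in place of all exons, Pvt1 was at 5.53 and Airn at 1.63 CPM per kb, so Pvt1 came before Neat1 and Airn came before Kcnq1ot1. Malat1 alone took 0.145% to 0.230% of all gene counts and ranked 38 among all genes by mean CPM.

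All 9 genes passed the filter on low counts. At 10 µM none of the 9 differed from control by edgeR's quasi-likelihood test (0 of 13865 genes with a Benjamini-Hochberg adjusted p under 0.05, 0.0%), and none had an unadjusted p under 0.05, as 0.692% of all genes did. At 30 µM none of the 9 passed either (0.0% of all genes), and Mir17hg alone, which was lower, had an unadjusted p under 0.05, against 4.29% of all genes (2.31% counting only lower ones). DESeq2 and limma voom called 0 genes in either comparison as well. The median log2 fold change of the 9 was -0.07 at 10 µM and -0.10 at 30 µM, beside 0.0059 and 0.012 over all genes tested. Both comparisons use the same control libraries. No gene of the 9 had a uracil group whose CPM lay wholly outside the control range, as 0.0649% of all genes did at 10 µM and 0.144% at 30 µM. In a bulk sample a lower level can mean fewer cells with the RNA or less of it per cell, and these cannot be told apart.

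**Figure D1:**
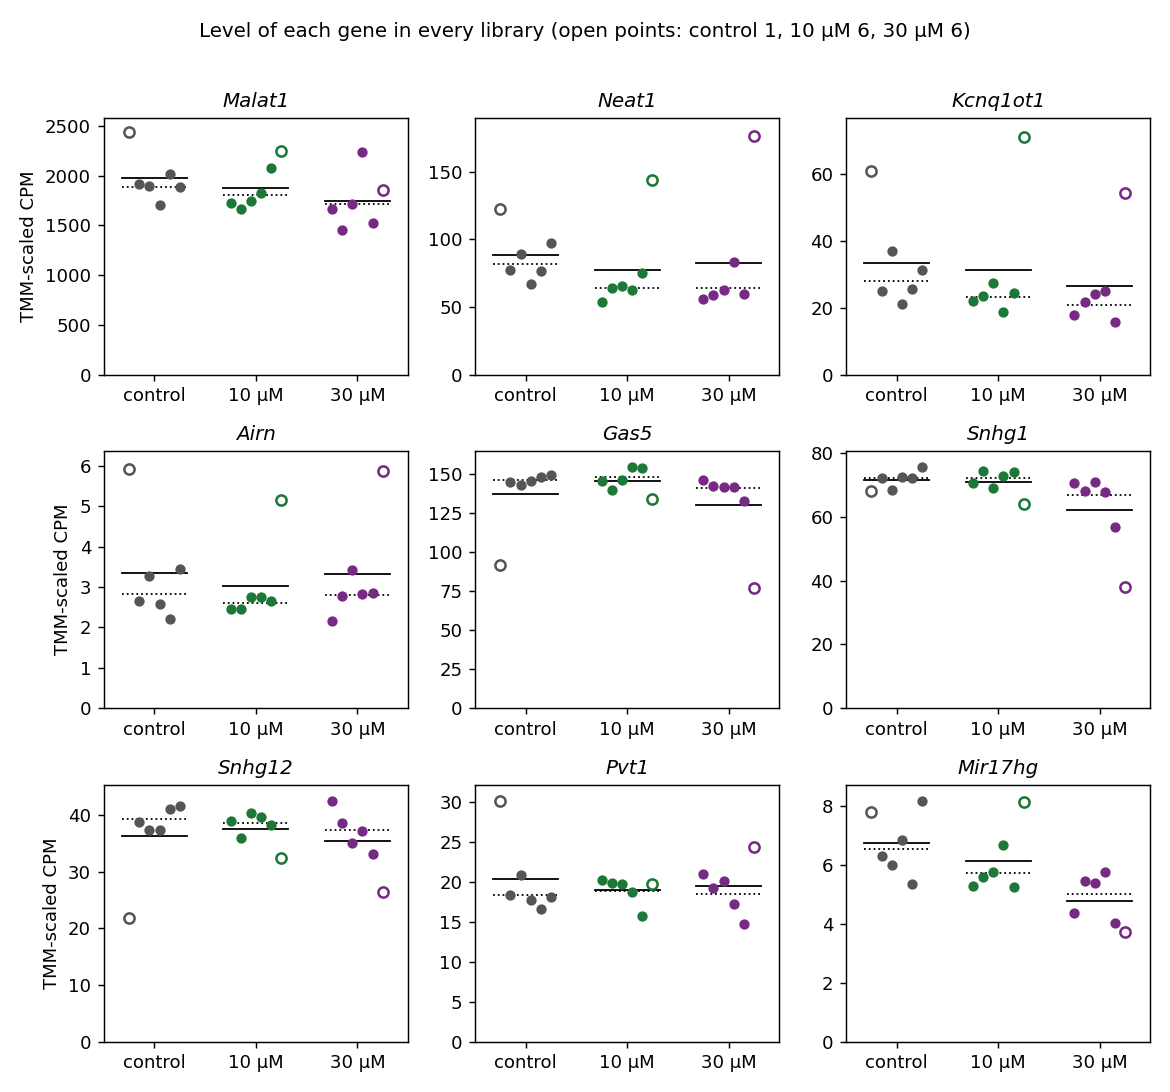
TMM-scaled CPM (vertical axes from 0) of each of the 9 genes in the 6 control, 6 10 µM and 6 30 µM libraries, in order of library number within a dose; solid lines are means of 6, dotted lines are means without the open points. Open points are control 1, 10 µM 6 and 30 µM 6: they lie above the others for Neat1, Kcnq1ot1 and Airn and below them for Gas5, Snhg1 and Snhg12.

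Malat1 (chr19:5845717-5853602, minus strand, GRCm39) had a lowest, median and highest level of 1706, 1903 and 2435 CPM in control, 1664, 1784 and 2250 CPM at 10 µM, and 1452, 1692 and 2239 CPM at 30 µM. The 3 ranges overlapped over most of their width, although the median was lower at each higher dose. Its log2 fold change came to -0.07 ± 0.11 at the lower dose and to -0.18 ± 0.11 at the higher (SE, n = 6 per dose), where the edgeR adjusted p was 0.931.

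Neat1 (chr19:5874736-5897132, minus strand), whose gene is a near neighbour of Malat1, had 66.9, 83.1 and 122 CPM in control, 53.6, 64.8 and 144 CPM at 10 µM, and 55.6, 61.0 and 177 CPM at 30 µM. The highest value of every dose was that of the library that stood apart. Over all 18 libraries its log2 fold changes at the lower and the higher dose were -0.18 ± 0.29 and -0.10 ± 0.29. Without the 3 libraries the controls spanned 66.9 to 97.5 CPM, the 10 µM libraries 53.6 to 75.4 CPM and the 30 µM libraries 55.6 to 83.4 CPM. The log2 fold changes then came to -0.35 ± 0.12 and -0.36 ± 0.12 (n = 5 per dose), with unadjusted p-values of 0.012 and 0.011 in edgeR and adjusted values of 0.998 and 0.944. Set beside the control with its own number, Neat1 was then higher in 0 of 4 libraries at 10 µM and in 1 of 4 at 30 µM. The share of all genes with such counts was not computed, and the ranges of the doses still overlapped.

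The 2 imprinted antisense RNAs had the lowest control levels of the 9 per kilobase. The SD of CPM as a share of the mean was 51.4% for Kcnq1ot1 and 36.4% for Airn in all 18 libraries. In the 15 it was 22.1% and 14.1%. Kcnq1ot1 (chr7:142731402-142850327, minus strand) had 21.2, 28.6 and 60.9 CPM in control, 18.8, 24.1 and 71.2 CPM at 10 µM, and 15.6, 22.9 and 54.3 CPM at 30 µM. As for Neat1, the highest value of each dose belonged to the library that stood apart. Its log2 fold change at 30 µM was -0.34 ± 0.37 in all 18 libraries and -0.44 ± 0.16 in the 15, where the unadjusted p was 0.013 and the adjusted p 0.944. Kcnq1, the potassium channel gene on the other strand, had 0 to 10 counts per library, beside 209 to 1025 for Kcnq1ot1. Airn (chr17:12960198-13079299, plus strand) rested on 22 to 74 counts per library. It had 2.20, 2.96 and 5.93 CPM in control, 2.44, 2.70 and 5.14 CPM at 10 µM, and 2.15, 2.83 and 5.88 CPM at 30 µM. The ranges of the 3 doses were nearly the same, and the log2 fold changes of -0.06 ± 0.26 and 0.02 ± 0.26 were smaller than their errors. At 30 µM the sign of Airn turned to -0.03 ± 0.15 in the 15 libraries. Igf2r, the receptor gene that Airn overlaps on the other strand, stood at 673 ± 46.0 CPM (SD, n = 18), and how much of Airn's low count could be reads of Igf2r was not tested, since the strand setting of the counting is not given in the sources used here.

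Among the snoRNA hosts, Gas5 (chr1:160861793-160866118, plus strand) had 92.1, 145 and 149 CPM in control, 134, 146 and 155 CPM at 10 µM, and 77.1, 142 and 146 CPM at 30 µM. Apart from control 1 and 30 µM 6, which were far below the rest, all values lay between 133 and 155 CPM. Snhg1 (chr19:8700319-8703812, plus strand) had 68.1, 72.1 and 75.6 CPM in control, 64.2, 71.6 and 74.4 CPM at 10 µM, and 37.9, 68.0 and 71.0 CPM at 30 µM. Its 30 µM mean of 62.0 ± 12.9 CPM (SD, n = 6) was lower than the control mean of 71.5 ± 2.78 CPM, with an exact two-sided permutation p of 0.0476 before any adjustment. This was 1 of 18 such comparisons, and edgeR gave -0.20 ± 0.11 with an adjusted p of 0.931. Without 30 µM 6, which held the lowest value, and the other libraries that stood apart, the means were 66.8 and 72.1 CPM. The lowest value was then that of 30 µM 5, at 56.7 CPM. The log2 fold change was then -0.12 ± 0.06 with an edgeR adjusted p of 0.944. The exact permutation p was again 0.0476 before any adjustment (n = 5 per dose). Snhg12 (chr4:132035905-132038762, plus strand) had 21.8, 38.1 and 41.6 CPM in control, 32.5, 38.6 and 40.4 CPM at 10 µM, and 26.5, 36.1 and 42.6 CPM at 30 µM. The log2 fold changes at 10 µM were 0.08 ± 0.13 for Gas5, -0.01 ± 0.11 for Snhg1 and 0.04 ± 0.12 for Snhg12, and in the 15 libraries they were 0.02 ± 0.04, -0.0016 ± 0.06 and -0.02 ± 0.06, so the sign of Snhg12 turned. Of the 23 snoRNA genes annotated inside the 3 hosts, 21 had entries in the count table, and all 21 stood at 0 counts in every library, so no level of the snoRNAs can be given. Zbtb37, a zinc finger gene that overlaps Gas5 on the other strand, stood at 29.7 to 69.5 CPM, and its highest value was that of control 1.

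Pvt1 (chr15:61888639-62249945, plus strand) had 16.6, 18.3 and 30.2 CPM in control, 15.7, 19.7 and 20.3 CPM at 10 µM, and 14.7, 19.7 and 24.4 CPM at 30 µM. The medians of the 3 doses differed by less than the spread within any of them. Its log2 fold changes were -0.07 ± 0.13 and -0.04 ± 0.13, and in the 15 libraries the sign turned, to 0.03 ± 0.09 and 0.0021 ± 0.09. Myc, its neighbour, was at 95.2 ± 20.6 CPM in control and 97.5 CPM at 30 µM, with a log2 fold change of 0.03.

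Mir17hg was the only one of the 9 below an unadjusted p of 0.05 at 30 µM with all libraries in. It had 5.35, 6.59 and 8.16 CPM in control, 5.24, 5.68 and 8.13 CPM at 10 µM, and 3.71, 4.87 and 5.78 CPM at 30 µM, from 24 to 124 counts per library. Each 30 µM library was below the control that shared its number (6 of 6), and so was each 10 µM library (6 of 6). At 10 µM some of these differences were small, as in number 6 with 8.13 CPM beside 8.16 in control. Both counts use the same controls, the labels do not say that a number pairs libraries, and the share of all genes with such counts was not computed. The ranges of control and 30 µM overlapped between 5.35 and 5.78 CPM. The 30 µM mean of 4.79 ± 0.86 CPM lay under the control mean of 6.75 ± 1.08 CPM, and the 10 µM mean of 6.12 ± 1.12 CPM lay between them (SD, n = 6). At 30 µM the log2 fold change was -0.46 ± 0.14, with a 95% interval from -0.77 to -0.16 and an unadjusted p of 0.00469 in edgeR, and the adjusted p over all genes was 0.931. The exact two-sided permutation p of the means was 0.00866, where 0.00216 is the smallest that 6 against 6 libraries can give. In the 15 libraries the log2 fold change was -0.38 ± 0.13 with an adjusted p of 0.944, and the exact permutation p was 0.0317 (n = 5 per dose). At 10 µM it was -0.13 ± 0.14 in all libraries. Between 30 µM and 10 µM, where 2.33% of all genes had an unadjusted p under 0.05, the difference was -0.34 ± 0.14 with an unadjusted p of 0.029 and an edgeR adjusted p of 1.00.

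**Figure D2:**
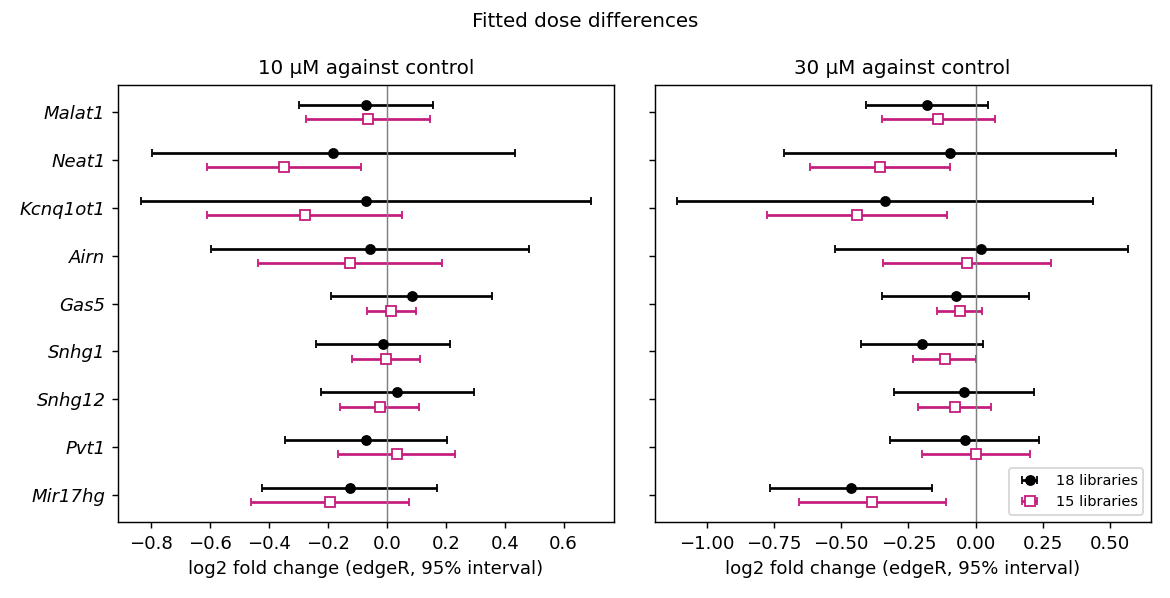
Log2 fold change of each gene against control (horizontal axes) at 10 µM (left) and 30 µM (right) with 95% intervals from edgeR, for all 18 libraries (filled circles) and for the 15 without control 1, 10 µM 6 and 30 µM 6 (open squares). The intervals of Neat1 and Kcnq1ot1 are much narrower in the 15, and at 30 µM that of Mir17hg lies below 0 in both, from -0.77 to -0.16 in all 18.

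In the 15 libraries 3 of the 9 genes, Neat1, Kcnq1ot1 and Mir17hg, had an unadjusted p under 0.05 at 30 µM, where 4.33% of all genes did (edgeR). At 10 µM, where 4.72% did, Neat1 alone had. All of these were lower than control, as were 3.0% of all genes at 30 µM and 3.27% at 10 µM, and none passed after adjustment (0.0% of all genes). In edgeR, where the doses share an estimate of the spread, the low p-values of Neat1 and Kcnq1ot1 rested on leaving out 10 µM 6 too. With it in, and without control 1 and 30 µM 6, Neat1 at 30 µM was at -0.35 ± 0.23 (unadjusted edgeR p of 0.146). Kcnq1ot1 was then at -0.44 ± 0.32 at 30 µM (0.198), and Neat1 at 10 µM at -0.07 ± 0.22 (0.748). Mir17hg was then at -0.38 ± 0.15 at 30 µM (0.0193). The exact permutation test at 30 µM uses no 10 µM library. Its unadjusted p, among 18 comparisons, was 0.0476 for Neat1 and 0.0635 for Kcnq1ot1 with 10 µM 6 in or out. For Neat1 at 10 µM the exact permutation p was 0.0159 in the 15 and 0.872 with 10 µM 6 in. Both doses share their controls, so the lower Neat1 levels of both are not independent of each other.

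Libraries with the same number were also compared, in a model with dose and number, since the number may mark a shared culture or day. Number separated 1745 of 13865 genes (12.6%) at an adjusted p under 0.05 in edgeR. None of the 9 passed, and 4 (Neat1, Pvt1, Kcnq1ot1 and Airn) had an unadjusted p under 0.05, as 26.4% of all genes did. The lowest adjusted p was 0.0819, for Neat1. For Neat1 number 6 was highest, with 139 ± 39.7 CPM (SD, n = 3), and the other numbers averaged 66.7 to 77.2 CPM, but 2 of the 3 libraries of number 6 stood apart. For Pvt1 the means were 15.7 ± 0.963 CPM in number 5, 17.9 ± 0.741 in number 4, 19.2 ± 0.770 in number 2 and 20.2 ± 0.574 in number 3 (SD, n = 3 each). Numbers 6 and 1, which hold the libraries that stood apart, were at 20.8 ± 3.27 and 23.8 ± 5.51 CPM, with spreads that overlapped the others. In the 15 libraries, where number separated 20.8% of all genes, Pvt1 passed with an adjusted p of 0.012 and the others did not.

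The widest differences among libraries lay in the 3 that stood apart, which were singled out by their uncounted reads. In control 1, 10 µM 6 and 30 µM 6, Neat1 was at 1.59, 2.24 and 2.98 times the median of the other 5 libraries of its dose. Kcnq1ot1 was at 2.37, 3.02 and 2.50 times, and Airn at 2.24, 1.94 and 2.09 times. All 9 of these values lay above every other library of the dose. Gas5 was at 0.633, 0.917 and 0.543 times, Snhg1 at 0.944, 0.881 and 0.557 times, and Snhg12 at 0.562, 0.832 and 0.711 times, and these 9 values lay below every other library of the dose. Neat1 and the imprinted RNAs Kcnq1ot1 and Airn were thus high where Gas5, Snhg1 and Snhg12 were low. Malat1 was at 1.29, 1.29 and 1.11 times, above the others in control 1 and 10 µM 6 and within them in 30 µM 6. Pvt1 was at 1.66, 1.00 and 1.27 times, above the others in control 1 and 30 µM 6 and within them in 10 µM 6. Mir17hg was at 1.24, 1.45 and 0.690 times: within the others in control 1, above them in 10 µM 6 and below them in 30 µM 6. Lying outside the other 5 was common in these libraries: of 13044 genes with a mean of at least 1 CPM, 36.7% were above and 37.7% below in control 1, 29.9% and 30.5% in 10 µM 6, and 34.6% and 37.8% in 30 µM 6. With 3 libraries of uncertain quality no test was made, and the part of unaligned reads, depth and reads outside genes in these values was not tested.

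**Figure D3:**
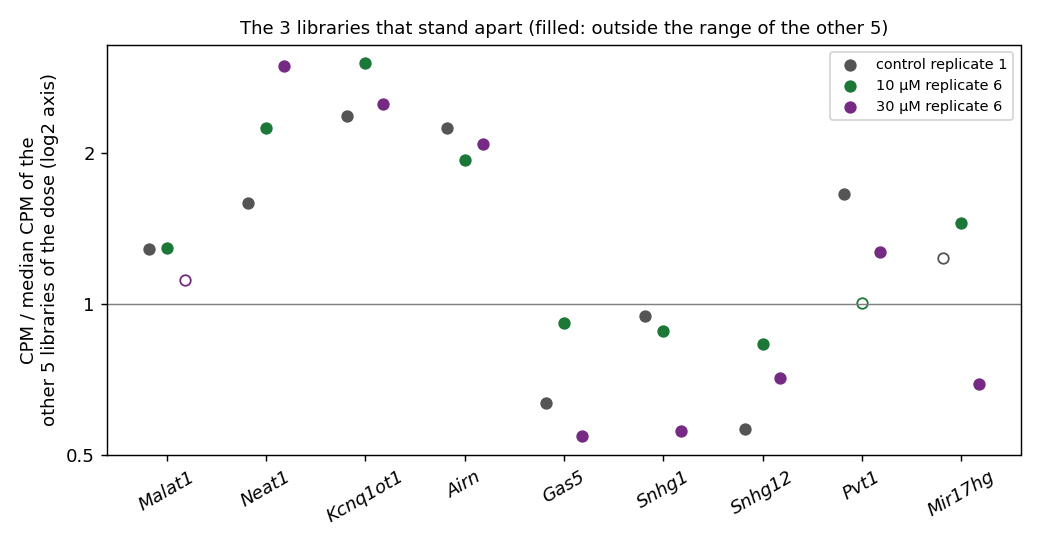
CPM of each gene in control 1, 10 µM 6 and 30 µM 6, divided by the median of the other 5 libraries of the same dose (log2 axis); filled points lie outside the range of those 5. Neat1, Kcnq1ot1 and Airn are above 1 in all 3 libraries (1.59 to 3.02) and Gas5, Snhg1 and Snhg12 below 1 in all 3 (0.543 to 0.944).

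In the other 15 libraries the 3 snoRNA hosts had the smallest spread of the 9. The coefficient of variation of CPM was 3.7% for Gas5, 6.3% for Snhg1 and 6.6% for Snhg12, 10.1% for Pvt1, 11.6% for Malat1, 14.1% for Airn, 17.4% for Mir17hg, 18.4% for Neat1 and 22.1% for Kcnq1ot1. Gas5 varied over a range of 133 to 155 CPM, and Kcnq1ot1 over 15.6 to 37.0 CPM. Over all 18 libraries Snhg1 was still the lowest of the 9 at 12.8%, but Malat1 came next at 13.9%. Snhg12 at 14.5% and Gas5 at 14.7% followed. Airn and Mir17hg rested on 22 to 74 and 24 to 124 counts per library, and the part of counting error in these spreads was not tested.

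Over the same 15 libraries Neat1 went with the read pairs outside genes per 100 gene counts (Pearson r = 0.64, Spearman rho = 0.57). So did Malat1 (r = 0.60, rho = 0.46) and Airn (r = 0.51, rho = 0.46). Without the 2 libraries farthest from the median, 30 µM 1 and 30 µM 2, r was 0.53 for Neat1, 0.41 for Malat1 and 0.45 for Airn. Within the doses (n = 5 each, control, 10 µM and 30 µM in that order) r was 0.50, 0.24 and 0.78 for Neat1, -0.10, 0.79 and 0.70 for Malat1, and 0.44, -0.05 and 0.68 for Airn, so only Neat1 of these had 1 sign in all doses. Gas5 (r = 0.12, rho = 0.03) and Snhg1 (r = 0.15, rho = 0.20) had low pooled values, but within the doses r was 0.71, 0.67 and -0.40 for Gas5 and 0.65, 0.46 and -0.16 for Snhg1. Pvt1 was lower where this measure was higher (r = -0.40, rho = -0.44), with -0.20, -0.75 and -0.45 within the doses. Mir17hg had r = 0.48 (rho = 0.27), with 0.66, -0.25 and 0.34 within the doses. Kcnq1ot1 had r = 0.40 (rho = 0.39), with 0.23, -0.39 and 0.45. Snhg12 had r = -0.18 (rho = -0.27), with 0.57, -0.05 and -0.66. These values describe 15 libraries that share 3 doses and 6 numbers, and both measures of a library come from the same reads, so no p is given.

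**Figure D4:**
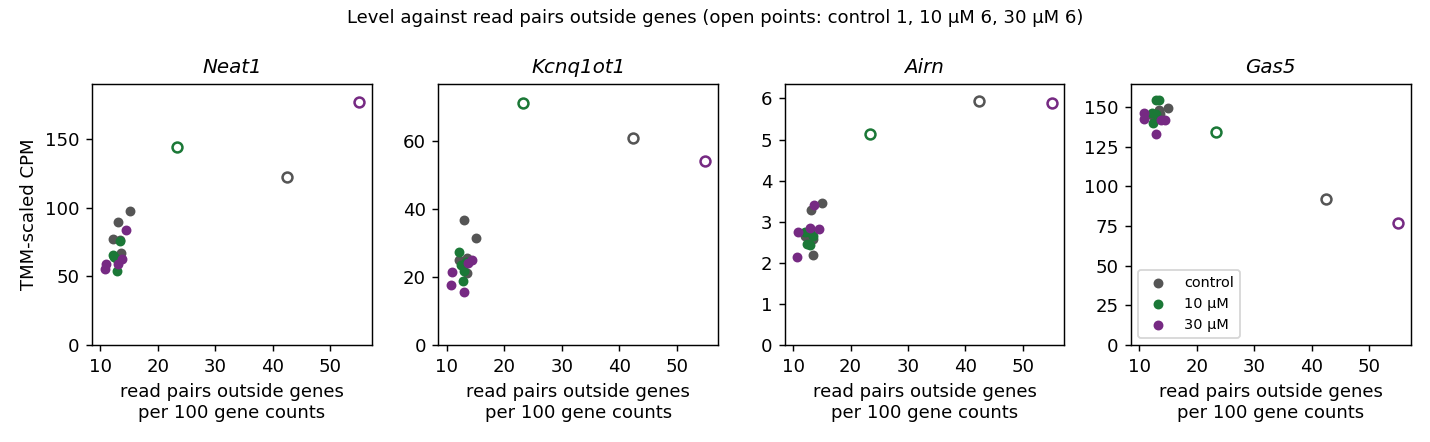
TMM-scaled CPM of Neat1, Kcnq1ot1, Airn and Gas5 (vertical axes from 0) against read pairs outside genes per 100 gene counts (horizontal axes) in all 18 libraries, coloured by dose. The 15 filled points lie between 10.8 and 15.1 pairs per 100; the open points, control 1, 10 µM 6 and 30 µM 6, lie at 42.4, 23.3 and 55.0.

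Between members, over the 15 libraries, Gas5 went with Snhg1 (r = 0.73) and with Snhg12 (r = 0.73) in log2 CPM, Snhg1 with Snhg12 (r = 0.58) and with Mir17hg (r = 0.64), and Neat1 with Kcnq1ot1 (r = 0.78) and Malat1 (r = 0.71). The library 30 µM 5 held the lowest value of the 15 for Gas5 (133 CPM), Snhg1 (56.7), Snhg12 (33.1) and Mir17hg (4.03). Its part in these correlations was not tested. Of 12983 other genes, those most like each member were mostly protein-coding genes on other chromosomes. Neat1 was most like Cdk6, a cell cycle kinase (r = 0.95), Atp13a3 (0.94) and the collagen receptor Ddr2 (0.92). Kcnq1ot1 was most like Zfp871, Qser1 and Ago3 (all 0.93). Malat1 was most like Psip1 (0.88), Vps13a (0.87) and Acsl4 (0.86), and Airn was most like Mycl (0.87), Plxna1 (0.82) and Clasp1 (0.82). For the hosts they were the noncoding 5530601H04Rik (0.86), Nfu1 (0.82) and Rny3 (0.81) for Gas5, Abracl (0.90), Gm3604 (0.88) and Ssbp1 (0.88) for Snhg1, and for Snhg12 a pair of genes with no symbol (both 0.80) and the ribosomal protein gene Rpl30 (0.79). Pvt1 was most like the actin-binding Cnn3 (0.93), the receptor gene Ntrk3 (0.92) and Fads3 (0.91), and Mir17hg was most like Wsb1 (0.87), Macc1 (0.83) and the noncoding Gm28119 (0.83). Each is the highest of many correlations over few libraries and is a description.

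Genes known to work with the 9 were followed in 13 lists, and none of their tested members passed in any dose contrast (0.0% of all genes, edgeR). Counts at an unadjusted p under 0.05 stand beside the 4.29% of all genes at 30 µM. Of the other nuclear-enriched noncoding RNAs, 8 were tested and 1 had an unadjusted p under 0.05 at 30 µM. The most abundant was Rian, an imprinted RNA that also carries snoRNAs, at 325 ± 37.3 CPM in control and 322 CPM at 30 µM. Of 17 tested entries on a list of other host genes, 2 had an unadjusted p under 0.05 at 30 µM. Rmrp, the RNA of RNase MRP and itself no snoRNA host, was the most abundant on that list at 84.9 ± 32.3 CPM in control, and the snoRNA host Snhg17 was at 22.7 ± 2.73 CPM. In the libraries that stood apart the other hosts did not share 1 direction. Of the 17, 4 were above and 7 below the other libraries of the dose in control 1. The counts were 4 and 6 in 10 µM 6, and 2 and 7 in 30 µM 6.

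The 15 paraspeckle proteins, partners of Neat1, had a median log2 fold change of -0.09 at 30 µM (1 of 15 at an unadjusted p under 0.05), with Hnrnpk at -0.05 and Hnrnph3 at -0.13. The 12 nuclear speckle proteins, among which Malat1 sits, had a median of -0.07 (2 of 12), with Son at -0.07 and the splicing factor Srsf5 at -0.03. In the imprinted domain of Kcnq1ot1, 7 of 12 genes were tested (2 of 7), with Cd81 at 466 ± 55.9 CPM in control and Tnfrsf23 at 11.8 ± 6.85 CPM. In the domain of Airn only Igf2r of 5 genes was tested, at 652 ± 51.7 CPM in control and 692 CPM at 30 µM. Of 14 nonsense-mediated decay factors, which act on the snoRNA hosts, 2 had an unadjusted p under 0.05, and the kinase Smg1 was at -0.12. None of the 16 Myc and E2F genes, the 12 microRNA processing genes, the 14 proliferation genes or the 14 ribosome production genes had an unadjusted p under 0.05 at 30 µM. Examples at 30 µM are Mxd4, a Myc antagonist, at 0.09 and Mycn at 0.03, Ddx5 at -0.08 and Dicer1, which cuts microRNA precursors, at -0.05, Top2a at -0.03 and Mcm2 at 0.14, and Npm1 at -0.11 and Polr1b at 0.01, all as log2 fold changes. The lists of the snoRNA and of the microRNA genes inside the members had no tested gene. Replicate number called 1 gene of the nuclear RNAs (Rian), 1 of the other hosts (Snhg17), 2 nuclear speckle proteins (Srsf5, Acin1), 2 Myc family genes (Mycn, Mycl) and 3 of ribosome production (Polr1a, Polr1b, Fbl), beside 12.6% of all genes.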

How the data were processed

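Total RNA of 18 MEF cultures was sequenced, and each title gave its library's dose and number. The authors deposited raw counts, whole read pairs per Ensembl gene and library. Their processing notes name FastQC, HISAT2, SAMtools 1.2 and HTSeq, and GRCh38 as the only build. Neither the annotation nor whether counting used strand is given in the sources used here. The 5 closing entries that name no gene stayed out of library sizes and tests: pairs outside genes were 6.85% to 15.5% of all pairs, ambiguous pairs 0.503% to 1.64%, pairs of low alignment quality 4.79% to 13.1%, multiply aligned pairs 5.59% to 20.2% and unaligned pairs 1.72% to 54.2%. All 18 count columns matched a sample and 0 matched none.

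Symbols and coordinates were taken from GENCODE M39 (GRCm39), in which 51731 of the 55487 genes were found, and sequences from RefSeq on GRCm38.p6. Counts were filtered with filterByExpr (13865 genes kept), TMM-scaled and fitted with edgeR 4.0.16 in R 4.3.3 by quasi-likelihood with robust dispersion and dose as the only term, and p-values were Benjamini-Hochberg adjusted over all genes tested. Tests were two-sided, and the threshold was 0.05. The standard error is the log2 fold change over the root of its F. Means of single genes were compared by exact permutation (924 permutations). Replicate number was tested in a model with dose. Alternatives were DESeq2 1.42.0, limma 3.58.1 voom with quality weights, DESeq2-type size factors (RLE), library totals alone, no filter, at least 10 counts in every library, leaving out libraries, another gene length and the replicate number as a block. Library numbers gave deviations that correlated from -0.10 to 0.71 within a number.

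The 9 genes, the lists, the settings and the rule for naming genes were chosen with earlier results of these data known, and the 9 are therefore no independent evidence of any pattern they show. All 9 are named, with the list genes of highest mean CPM or lowest p for number (where none passed for dose) and the 3 genes most alike each member by Pearson r of log2 CPM (prior count 2, mean of at least 1 CPM). A list gene that this rule named is not reported here.

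On simulated counts drawn from the real means and library sizes (13788 genes), the test of 30 µM against control recovered 96.0% of 100 genes changed 4-fold and 86.0% of 100 changed 2-fold, and called 5 genes that had not been changed. Counts were drawn independently for each gene and library, so the library-wide differences of the libraries that stood apart were not reproduced. No change below 2-fold was simulated. The recovery therefore does not tell how small a change the test could find in the real libraries.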

Additional observations from a re-analysis of the deposited data

Results flagged for a closer look

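In each dose the highest and the lowest of the 6 libraries were compared with their nearest neighbour by Dixon's ratio. Of 27 groups, 12 held a library past the 95% critical value, where chance gives about 1 in 20 for a single group. The groups share libraries and are not independent, and the share over all genes was not computed. Of the 12, 11 were in the 3 libraries with the most reads outside genes. There, of 13044 genes, 36.7% lay above and 37.7% below the others of the dose in control 1. The shares were 29.9% and 30.5% in 10 µM 6, and 34.6% and 37.8% in 30 µM 6. The count is therefore not read as a result about the 9 genes. In 30 µM 6, Neat1 was at 177 CPM (others 55.6 to 83.4), Kcnq1ot1 at 54.3 CPM (15.6 to 25.1) and Airn at 5.88 CPM (2.15 to 3.42), all high, and Gas5 was low at 77.1 CPM (133 to 146). In 10 µM 6, Neat1 was at 144 CPM (others 53.6 to 75.4), Kcnq1ot1 at 71.2 CPM (18.8 to 27.6) and Airn at 5.14 CPM (2.44 to 2.75), all high. In control 1, Airn was at 5.93 CPM (others 2.20 to 3.45) and Pvt1 at 30.2 CPM (16.6 to 20.8), both high, and Gas5 at 92.1 CPM (143 to 149) and Snhg12 at 21.8 CPM (37.4 to 41.6), both low.

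The remaining one was Pvt1 in 10 µM 5, low at 15.7 CPM beside 18.7 to 20.3 CPM in the others of that dose. Pvt1 was also the lowest of its dose in the libraries of number 5 at 30 µM (14.7 CPM) and in control (16.6 CPM).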

How the results depend on the processing

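No gene of the 9, and no gene of all those tested, passed for dose under any alternative (edgeR, DESeq2 and limma voom, the other scalings and filters, the replicate block, and each library left out). Mir17hg stayed lower at 30 µM in all of them, between -0.52 and -0.40 when 1 library was left out. Values near 0 turned sign, and the cause was not tested. Without control 1 and 30 µM 6, the log2 fold change at 10 µM was 0.15 for Kcnq1ot1, 0.093 for Airn, -0.0015 for Gas5, -0.058 for Snhg12 and 0.050 for Pvt1, and at 30 µM -0.028 for Airn and 0.0061 for Pvt1. Mean CPM then differed from control at 10 µM by 3.20 for Kcnq1ot1, 0.203 for Airn, -0.320 for Gas5, -1.62 for Snhg12 and 0.651 for Pvt1, and at 30 µM by 0.135 for Pvt1. Without 10 µM 6 as well, it was -0.024 for Snhg12 and 0.034 for Pvt1 at 10 µM, and -0.033 for Airn and 0.0021 for Pvt1 at 30 µM, and mean CPM differed by 0.0785 for Snhg1, -0.583 for Snhg12 and 0.504 for Pvt1 at 10 µM and 0.135 for Pvt1 at 30 µM. limma voom gave -0.0064 for Snhg12 and 0.029 for Pvt1 at 10 µM, and -0.031 for Airn and 0.043 for Pvt1 at 30 µM. With no filter Snhg1 was 0.0021 at 10 µM, and with library totals alone Airn was -0.0098 at 30 µM.

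Leaving out 1 library at a time gave at 10 µM -0.49 to 0.15 for Kcnq1ot1, -0.26 to 0.089 for Airn, -0.0063 to 0.11 for Gas5, -0.028 to 0.018 for Snhg1, -0.063 to 0.077 for Snhg12 and -0.11 to 0.046 for Pvt1. At 30 µM it gave -0.45 to 0.0061 for Neat1, -0.17 to 0.16 for Airn, -0.17 to 0.033 for Gas5, -0.14 to 0.017 for Snhg12 and -0.10 to 0.073 for Pvt1.

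Deviations of libraries with the same number correlated at 0.10 to 0.71 in numbers 2 to 6 and at 0.55 between 10 µM 1 and 30 µM 1, but control 1 correlated with these at -0.10 and -0.03, and not every library correlated best with its own number. The labels do not say what a number marks, so the samples were treated as sharing only a number. With the replicate block all counts of dose calls stayed at 0, and the log2 fold change of Mir17hg at 30 µM was -0.43. Signs turned only where libraries were left out too. Without control 1 and 30 µM 6 the block gave at 10 µM 0.0065 for Malat1, 0.10 for Kcnq1ot1, 0.14 for Airn, -0.0092 for Gas5, -0.086 for Snhg12 and 0.020 for Pvt1, and without 10 µM 6 as well 0.0083 for Airn, 0.012 for Snhg1 and -0.030 for Snhg12.

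For replicate number, DESeq2 called 2989 genes and 3 of the 9 (Neat1, Pvt1, Kcnq1ot1), and limma voom 5959 genes and 5 of the 9 (those 3, Airn and Mir17hg). Without control 1 and 30 µM 6, edgeR called 3287 genes and 3 of the 9 (Airn, Mir17hg, Pvt1), and in the 15 libraries 2890 genes and 1 of the 9 (Pvt1). Leaving out 1 library gave 1272 to 3498 genes and 0 to 4 of the 9. The 4 (Airn, Neat1, Pvt1, Kcnq1ot1) came without control 1 (3498 genes) and also without control 6 (3271 genes). Depth limits Airn and Mir17hg most, with 22 to 74 and 24 to 124 counts per library.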
